A study of Saccharomyces cerevisiae with 26 samples.

Results

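The genes described here are 10 transcription regulators through which baker's yeast (Saccharomyces cerevisiae) adjusts its genes to oxygen, heme and sterols: ROX1, HAP1, HAP2, HAP3, HAP4, HAP5, MOT3, UPC2, ECM22 and MGA2. They were chosen by symbol. All 10 are among the 5656 genes that the arrays name, and all 10 passed the filter on low signal that left 5369 genes for testing. RNA was measured on 26 Affymetrix yeast arrays in 2 strains. The reference strain CEN.PK113-7D has the genotype MATa MAL2-8c SUC2. The deletion strain is MATa MAL2-8c SUC2 leu2-3,112 with sfp1Δ::KlLEU2, so it lacks SFP1, an activator of ribosome production genes, and carries a mutated LEU2 complemented by the Kluyveromyces lactis marker. A difference between the strains cannot be told apart between SFP1 and the LEU2 locus. Both strains were kept in aerobic chemostats limited by glucose (30 °C, pH 5.0, stirred at 800 rpm, dilution rate 0.10 per h), where dissolved oxygen stayed above 60% of air saturation. Nitrogen sparging was then started and 200 mM glucose was added as a pulse. Per strain, 3 cultures were sampled before the pulse, at steady state, and a pair at 5, 10, 30, 60 and 120 min after it. No group received glucose or nitrogen alone, so the effects of oxygen loss and of excess glucose cannot be told apart in these data.

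Yeast senses oxygen largely through molecules whose synthesis consumes it. Hap1 is a zinc-cluster activator that binds heme and turns on genes of respiration, of sterol synthesis and of the repressor Rox1. Rox1, an HMG-box protein, shuts off hypoxic genes in air together with the Tup1-Cyc8 corepressor, and Mot3 is a zinc-finger repressor that acts beside it on some of them. Hap2, Hap3 and Hap5 form the complex that binds CCAAT boxes of respiratory genes, and Hap4 brings the activation domain and is the subunit known to be repressed by glucose. Upc2 and Ecm22 are paralogous activators that respond to falling sterol. Mga2 is an activator anchored in the endoplasmic reticulum membrane and freed by ubiquitin-dependent processing, and it drives OLE1, the oxygen-using fatty acid desaturase.

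Signals are linear intensities as deposited. For the tests, values under a floor of 12 were set to 12, log2 was taken and limma was fitted to all 12 groups together. A gene was called where its Benjamini-Hochberg adjusted p over all 5369 genes was under 0.05 (two-sided). A fold change from or to a group at the floor understates the true one and is given with the words at least. Levels are compared within a probe set only. A whole culture was measured, so fewer expressing cells and less RNA per cell cannot be told apart.

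Some facts of the arrays bear on every value from the deletion strain. SFP1 lay between 97.2 and 205.1 on all 13 reference arrays and between 0.2 and 2.9, below the floor, on all 13 deletion arrays. The 5′ over 3′ signal of the actin control, which falls as RNA breaks down, was 0.697 to 0.923 in the reference strain. In the deletion strain it was 0.147 on steady state array 1, 0.00322 on 30 min array 1 and 0.247 on 60 min array 1. The middle over 3′ signal of actin was 0.207 on 10 min array 2 and 0.176 on 30 min array 1 of this strain. It was 0.56 to 0.872 on the strain's other arrays. The array codes of its 10 min array 2, 30 min array 2 and 60 min array 1 start with MA, and all others with ES. Replicate arrays correlated at 0.97 to 0.993 across genes in 10 groups, but at 0.805 for the deletion strain at 10 min and 0.796 at 30 min. In that strain 10 min array 1 correlated at 0.978 with 30 min array 2, and 10 min array 2 at 0.922 with 30 min array 1. The labels are kept, and the main results that rest on these groups are also given without 10 min array 2 and 30 min array 2, called the discordant arrays. That leaves 1 array in each group, of which the one at 30 min is the array with the 5′ over 3′ actin ratio of 0.00322. The correlations do not say which array of each pair departs from its label, so results in this setting depend on that choice. Arrays that disagree then no longer add to the fitted spread. At steady state 26.7% of all genes were called in this setting, against 5.74% on all arrays. Its adjusted p describe that fit only. Both strains are labelled MATa, and all 5 a-cell marker genes lay above the floor on every array. At steady state all 5 were higher in the deletion strain (log2 0.48 to 1.08), with MFA2 and BAR1 called. Of the alpha-cell genes, 3 were tested, and all were higher in range in the deletion strain: MF(ALPHA)1 lay between 21.6 and 99.1 in the reference and between 126.6 and 796.7 in the deletion strain, STE3 between 15.4 and 38.1 and between 29.8 and 79.6, and SAG1 between 9.9 and 40.9 and between 39.2 and 70.8. MF(ALPHA)1 was the 1 alpha-cell gene called between the strains at steady state. The part of these array and culture differences in the results was not tested.

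Over the time course, 7 of the 10 regulators changed in the reference strain (F-test over the 5 time points, against 72.2% of all genes) and 4 of 10 changed in the deletion strain (against 57.1%). The 7 were ROX1, HAP1, HAP2, HAP4, HAP5, MOT3 and UPC2, and the 4 were ROX1, HAP4, UPC2 and MGA2. HAP1 is counted here by 1 of its probe sets, and another set gives it the other way round, as described with that gene. In the reference strain the falls outnumbered the rises, as among all genes called at every time (2601 lower and 1043 higher at 30 min). After 5 min 1 of 10 regulators was called (MOT3, lower; 1.9% of all genes), after 10 min 4 (HAP2, HAP4, HAP5 and MOT3, all lower; 25.1%) and after 30 min 6 (ROX1, HAP2, HAP4, HAP5 and MOT3 lower, HAP1 higher; 67.9%). After 60 min 7 were called, the same 5 lower and HAP1 and UPC2 higher (55.7%), and after 120 min 6, the same 5 lower and UPC2 higher (40.4%). In the deletion strain limma called 0 after 5 min (0.894% of all genes; 1 regulator at an unadjusted p under 0.05), HAP4 lower after 10 min (32.6%), and HAP4 lower with MGA2 higher after 30 min (30.3%). After 60 min ROX1 and HAP4 were lower and MGA2 higher (41%), and after 120 min HAP4 was lower and UPC2 and MGA2 higher (21.4%). With 10 genes each call is a large step, and the shares called lay above those of all genes in the reference strain at 5, 10, 60 and 120 min and below at 30 min, and in the deletion strain below at 5 to 60 min and above at 120 min. The median gene moved too: on the deposited scale it lay 0.53 (log2) below steady state in the reference strain at 30 min, and scaling every array to a common median placed it 0.25 above.

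**Figure D1:**
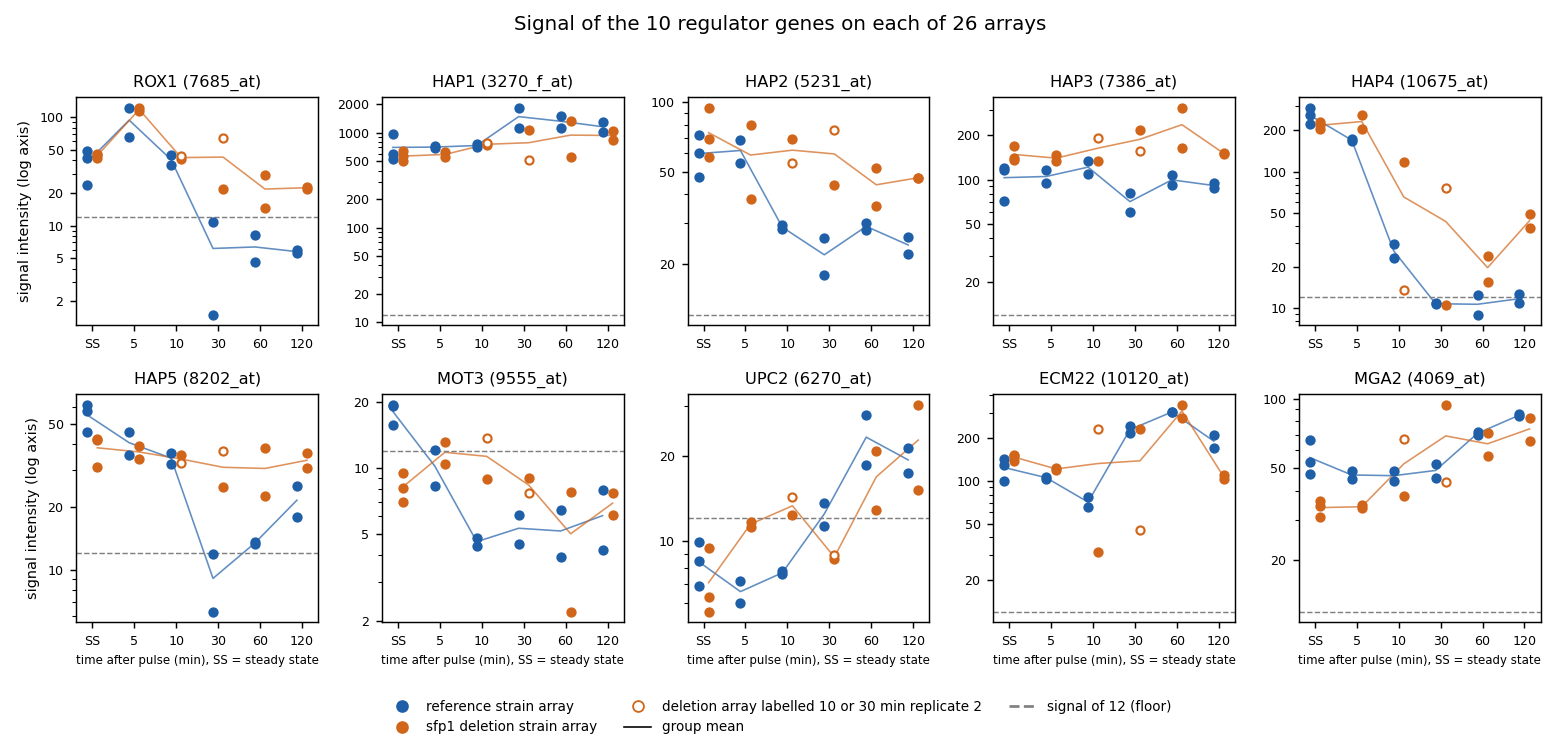
Signal of the 10 regulators (log axis, linear intensity) on each array against sampling time from steady state (SS) to 120 min, with reference arrays and deletion arrays in separate colours (open symbols for the discordant arrays), lines through the group means and a dashed line at the floor of 12. HAP4 falls from above 200 at steady state to about the floor in the reference strain, ROX1 peaks at 5 min in both strains, and UPC2 is above the floor late in the course.

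ROX1, the hypoxic repressor, was at its highest 5 min after the pulse in both strains and then fell. Its signals in the reference strain were 42.3, 23.7 and 49.1 at steady state, 65.6 and 122.0 at 5 min, and 36.0 and 45.2 at 10 min. They were 1.5 and 10.8 at 30 min, 4.6 and 8.1 at 60 min, and 5.6 and 5.9 at 120 min. Both 5 min arrays thus lay above every other array of the strain, and all 6 arrays from 30 min on lay below the floor. In the deletion strain ROX1 measured 45.7, 42.3 and 44.7 at steady state, 113.6 and 121.5 at 5 min, 40.8 and 43.9 at 10 min, 21.7 and 63.9 at 30 min, 29.0 and 14.4 at 60 min, and 21.8 and 22.9 at 120 min. No deletion array of ROX1 reached the floor.

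The 5 min peak of ROX1 was a log2 difference of 1.29 (SE 0.38) in the reference strain and 1.41 (SE 0.38) in the deletion strain. Neither passed over all genes (limma adjusted p = 0.112 and 0.111). Leaving out the discordant arrays, both passed (adjusted p = 0.00977 and 0.00602), where 9.54% and 6.6% of all genes were called. The later fall in the reference strain passed at 30, 60 and 120 min, at least 3.05-fold below steady state each time (adjusted p = 0.0012, 0.00173 and 0.00283). For the deletion strain it did not pass at 30 min (log2 -0.25, adjusted p = 0.654), passed at 60 min (-1.11, 2.16-fold lower, adjusted p = 0.0271) and did not at 120 min (-0.98, adjusted p = 0.0764). The 60 min call was lost without 60 min array 2 (log2 -0.61, adjusted p = 0.319), with quantile normalization (adjusted p = 0.0908) and with a common median (0.0703). Without the discordant arrays the 30 min value was -1.03, from 1 array at 21.7, where the array left out measured 63.9. The 120 min value was again -0.98.

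HAP1, the heme-responsive activator, is covered by 3 probe sets that do not give the same picture. The rule used for every gene, the highest mean signal, picked one of a pair of sets whose suffix marks them as designed by Affymetrix to be shared within a sequence family. The remaining set carries the suffix of a set meant for a single transcript and is called the single-transcript set here. Over the 26 arrays, the shared sets correlated with each other at 0.901 (Pearson's r of log2 signal), and the single-transcript set correlated with them at 0.617 and 0.67. The sources used here do not give where each set lies on the transcript, and the cause of the difference was not tested.

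By the shared set, HAP1 measured 976.7, 526.0 and 600.3 at steady state in the reference strain and 564.0, 498.6 and 640.0 in the deletion strain, which overlap. After the pulse the reference strain held 1835.0 and 1125.9 at 30 min and 1514.1 and 1132.6 at 60 min, above all its steady state arrays. The rise passed at 30 min (2.13-fold, log2 1.09, SE 0.35, adjusted p = 0.0106) and at 60 min (1.94-fold, adjusted p = 0.0276; 0.0734 with quantile normalization), the latter in 33 of 39 settings. The deletion strain's largest log2 difference from steady state by this set was 0.72, at 120 min (adjusted p = 0.159).

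By the single-transcript set the strains stood apart before the pulse. The reference strain measured 131.7, 176.7 and 172.3 at steady state and the deletion strain 70.8, 51.2 and 49.3, so every deletion array lay below every reference array. HAP1 was 2.82-fold lower in the deletion strain (log2 -1.50, SE 0.24, adjusted p = 0.00199), and the difference passed in all 34 settings tried, with log2 values between -1.71 and -1.40. This set was examined after the values of the other were seen. The deletion strain then rose to 211.6 and 167.6 at 60 min (3.34-fold, log2 1.74, SE 0.27, adjusted p = 0.000115) and to 187.9 and 119.3 at 120 min (2.66-fold, adjusted p = 0.00123), both called in all 34 settings. The reference strain rose to 255.4 and 308.9 at 60 min (1.77-fold, adjusted p = 0.0155), while its 30 min difference, called by the shared set, did not pass by this one (log2 0.42, adjusted p = 0.181; called in 2 of 34 settings). Over the whole time course the shared set passed the F-test in the reference strain and not in the deletion strain, and the single-transcript set passed in the deletion strain (adjusted p = 0.000439) and not in the reference strain (0.0512). The strains' changes did not differ past the threshold at 60 min (log2 difference 0.92, adjusted p = 0.201) or at 120 min (1.09, adjusted p = 0.176).

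**Figure D2:**
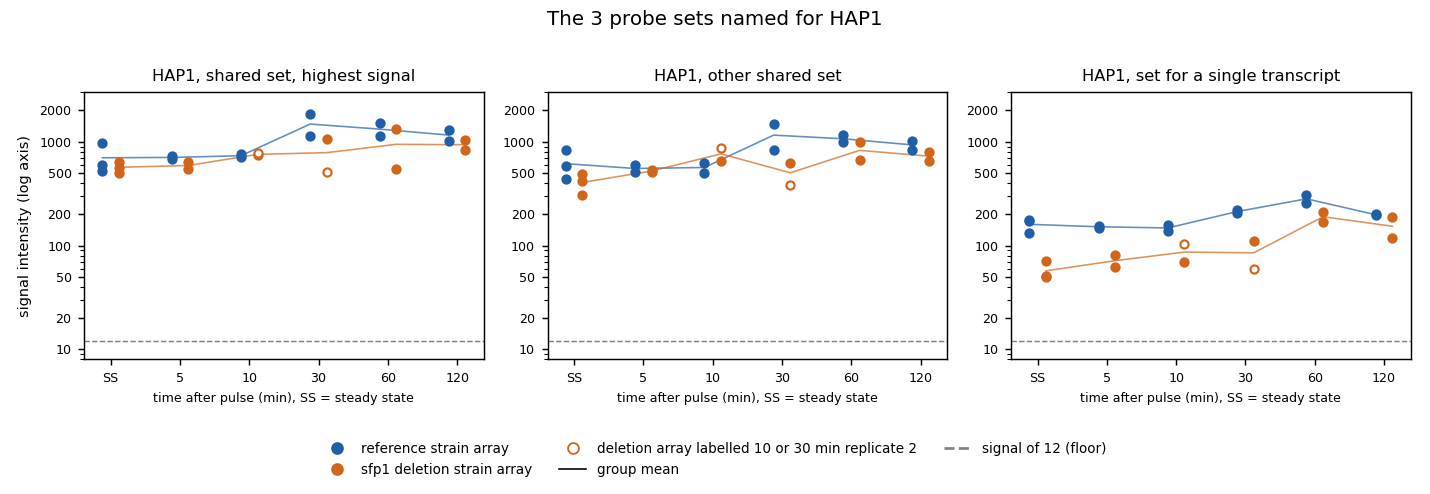
Signal of the 3 HAP1 probe sets (log axis) on each array against sampling time, reference and deletion arrays in separate colours (open symbols for the discordant arrays) with lines through group means and the floor of 12 dashed. The strains overlap at steady state in the shared sets and do not overlap in the single-transcript set, where the deletion arrays lie between 49.3 and 70.8.

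HAP4, the activation subunit of the CCAAT-binding complex, had the largest fall among the 10 regulators. In the reference strain it measured 224.1, 258.2 and 293.3 at steady state, 172.6 and 167.2 at 5 min, 29.4 and 23.1 at 10 min, 10.8 and 10.7 at 30 min, 8.9 and 12.4 at 60 min, and 10.8 and 12.6 at 120 min. From 5 min on every array lay below all steady state arrays, and from 30 min on all lay at about the floor. The fall passed first at 10 min (9.86-fold lower, log2 -3.30, SE 0.66, adjusted p = 0.00136) and was at least 21.4-fold at 30 min, 21.1-fold at 60 min and 20.9-fold at 120 min (adjusted p = 1.68e-05, 3.06e-05 and 5.93e-05).

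HAP4 in the deletion strain started at 230.7, 219.4 and 204.7 and held 258.8 and 206.3 at 5 min. It then measured 116.8 and 13.5 at 10 min, 10.5 and 75.7 at 30 min, 24.0 and 15.5 at 60 min, and 48.5 and 38.7 at 120 min. The arrays of 10 min and of 30 min each disagree with their partner, while at 120 min both arrays lay above all reference arrays from 30 min on. The fall passed at 10 min (log2 -2.46, adjusted p = 0.00954), 30 min (-2.85, adjusted p = 0.00403), 60 min (-3.50, adjusted p = 0.000521) and 120 min (-2.33, adjusted p = 0.0171). The 10 min call was lost without 10 min array 2 (log2 -0.90, adjusted p = 0.327), the 30 min call without 30 min array 1 (-1.53, adjusted p = 0.112), and the 120 min call without either 120 min array (adjusted p = 0.0814 and 0.119). Without the discordant arrays the 30 min value was -4.18, from the 1 array at 10.5. At 120 min the fall in the deletion strain was smaller by 2.05 on the log2 scale (adjusted p = 0.299). Without the discordant arrays the difference at 120 min was again 2.05. Those at 10 and 60 min were then 2.40 and 0.90, the one at 10 min from 1 deletion array.

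HAP2, HAP3 and HAP5 encode the DNA-binding subunits of the same complex, and they did not move as a unit. HAP5 fell in the reference strain, from 45.8, 61.9 and 57.9 at steady state to 35.6 and 45.7 at 5 min, 32.2 and 36.4 at 10 min, 11.9 and 6.3 at 30 min, 13.3 and 13.6 at 60 min, and 18.0 and 25.1 at 120 min. All arrays from 30 min on lay below all earlier ones. It was at least 4.56-fold lower at 30 min (log2 -2.19, SE 0.24, adjusted p = 6.9e-07), 4.07-fold lower at 60 min (adjusted p = 2.98e-06) and 2.58-fold lower at 120 min (adjusted p = 0.000233). The 10 min difference (log2 -0.68, adjusted p = 0.0455) passed in 18 of 39 settings.

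HAP5 in the deletion strain measured 41.9, 31.0 and 42.4 at steady state, 34.0 and 39.4 at 5 min, 35.5 and 32.4 at 10 min, 25.0 and 37.0 at 30 min, 38.5 and 22.7 at 60 min, and 30.6 and 36.4 at 120 min. These arrays lie within a narrow band, and the largest log2 difference from steady state was -0.36, at 60 min (adjusted p = 0.232). The strains' changes differed at 30 min (log2 1.87, SE 0.34, adjusted p = 0.000902) and at 60 min (1.66, SE 0.34, adjusted p = 0.00838). The 60 min difference missed the threshold with quantile normalization (1.27, adjusted p = 0.0542) and with a common median (1.26, adjusted p = 0.0595), while the 30 min difference passed in 38 of 39 settings. Leaving out 60 min array 1 of the deletion strain also ended the 60 min call. Before the pulse every deletion array of HAP5 lay below every reference array. That starting gap was log2 -0.53 and was called in 1 of 39 settings. The median gene's change also differed between the strains, by 0.29 for 30 min and 0.26 for 60 min. The part of the starting gap and of this general shift in the HAP5 differences was not tested.

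HAP2 fell in the reference strain from 47.4, 72.2 and 60.1 at steady state to 28.2 and 29.3 at 10 min, 25.9 and 17.8 at 30 min, 30.0 and 28.0 at 60 min and 22.1 and 26.1 at 120 min. All of these arrays lay below the steady state arrays. The falls were 2.05-fold at 10 min (adjusted p = 0.0222), 2.75-fold at 30 min (adjusted p = 0.000556), 2.04-fold at 60 min (adjusted p = 0.0104) and 2.46-fold at 120 min (adjusted p = 0.0034). With a common median the 10, 30 and 60 min calls were lost (adjusted p = 0.0995, 0.14 and 0.343), and the 60 min call was lost without 60 min array 2 (adjusted p = 0.064). The 10 min call held in 30 of 39 settings. The deletion strain's HAP2 ranged from 57.7 to 94.6 at steady state and from 35.7 to 79.9 afterwards, and no time point passed (adjusted p at least 0.0682).

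HAP3 passed at no time point against steady state in either strain on the deposited scale. Its reference signals were 120.5, 72.1 and 116.9 at steady state and between 60.2 and 133.9 afterwards, with the lowest pair, 60.2 and 81.6, at 30 min. The step from 10 to 30 min in the reference strain was a called fall (log2 -0.79, adjusted p = 0.044). The deletion strain's HAP3 ranged from 136.6 to 168.5 at steady state and from 134.1 to 308.7 afterwards, the highest array being 60 min array 1.

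MOT3, the second hypoxic repressor, had low signal and exceeded the floor on 6 of 26 arrays. The reference strain measured 15.7, 19.2 and 19.5 at steady state and 12.1 and 8.3 at 5 min, and its later arrays lay between 3.9 and 7.9. The deletion strain measured 9.5, 7.0 and 8.1 at steady state, under the floor on all 3 arrays. MOT3 was the 1 regulator of 10 called between the strains at steady state, where 5.74% of all genes were called; the deletion strain was lower by at least 1.50-fold (SE 0.08, log2 -0.59, adjusted p = 0.000549). The reference strain's fall was at least 1.50-fold at every time point (adjusted p = 0.00147 at 5 min and between 2.8e-05 and 0.000165 later). Because most MOT3 values were set to the floor, the SE of 0.08 partly reflects flooring rather than the spread between cultures. The 5 min call passed in 34 of 38 settings. It was lost with quantile normalization, with a common median, with no floor and when only the groups compared were fitted. Because the deletion strain started under the floor, its arrays cannot show a fall, so the called difference between the strains' changes at 10, 30, 60 and 120 min restates the steady state gap. With no floor and log2 of the signal plus 1, the steady state difference was -1.06 and missed the threshold (adjusted p = 0.0766).

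UPC2, the sterol-sensing activator, rose late from below the floor. In the reference strain it measured 6.9, 8.5 and 9.9 at steady state, 7.2 and 6.0 at 5 min, 7.8 and 7.6 at 10 min, 13.6 and 11.3 at 30 min, 18.6 and 28.0 at 60 min, and 21.3 and 17.4 at 120 min. The 4 arrays of 60 and 120 min lay above all others of the strain. The rise passed at 60 min (log2 0.93, SE 0.23, at least 1.90-fold, adjusted p = 0.00236) and at 120 min (at least 1.60-fold, adjusted p = 0.0243). Without 60 min array 2 the first had an adjusted p of 0.071, and without any 1 of the 3 steady state arrays the second had one between 0.0502 and 0.0513, as against 0.197 without 120 min array 1.

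UPC2 in the deletion strain measured 5.6, 6.3 and 9.4 at steady state, 11.7 and 11.2 at 5 min, 12.3 and 14.3 at 10 min, 8.6 and 8.9 at 30 min, 12.9 and 20.8 at 60 min, and 30.4 and 15.1 at 120 min. It lay above the floor on all arrays of 10, 60 and 120 min and on none at steady state. At 120 min it passed (log2 0.84, at least 1.79-fold, adjusted p = 0.0142), a call lost without 120 min array 1 (log2 0.33, adjusted p = 0.399) and with a common median (adjusted p = 0.11). The strains' changes did not differ past the threshold at 60 min (log2 -0.48, adjusted p = 0.46) or at 120 min (0.15, adjusted p = 0.871).

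ECM22, the paralogue of UPC2, is the member whose calls depend most on the discordant arrays. In the reference strain it measured 129.7, 99.5 and 142.3 at steady state, 103.6 and 106.6 at 5 min, 76.6 and 65.0 at 10 min, 216.0 and 241.0 at 30 min, 303.9 and 304.2 at 60 min, and 208.6 and 170.9 at 120 min. The 10 min arrays lay below all steady state arrays and every later array lay above them. The deletion strain measured 152.7, 148.8 and 138.1 at steady state, 118.3 and 123.7 at 5 min, 31.4 and 232.8 at 10 min, 231.3 and 44.8 at 30 min, 342.9 and 274.7 at 60 min, and 109.1 and 103.1 at 120 min. At 10 and 30 min the deletion arrays differ from their partners by more than any reference pair does.

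Against steady state no time point of ECM22 passed in either strain; the fit estimates 1 spread per gene over all groups, those pairs included. The reference strain's log2 differences were -0.80 at 10 min (adjusted p = 0.372), 0.90 at 30 min (0.195) and 1.31 at 60 min (0.0724), and the step from 10 to 30 min passed (log2 1.69, adjusted p = 0.0469). All of these passed without the discordant arrays, with adjusted p = 0.000351, 3.41e-05 and 4.42e-07 at 10, 30 and 60 min. In that setting ECM22 in the deletion strain was lower at 10 min (log2 -2.22) and higher at 30 min (0.66). Each value rests on 1 array (31.4 and 231.3), and the arrays left out measured 232.8 and 44.8. With all arrays the 30 min value had the opposite sign (-0.52, adjusted p = 0.534). At 120 min ECM22 stood above steady state in the reference strain (0.62) and below it in the deletion strain (-0.47), with or without the discordant arrays. The difference between the strains' changes was then -1.09, not called on all arrays, and passed in 2 of 39 settings. At 10 min that difference was -1.43 without the discordant arrays, from 1 deletion array. On all arrays it was 0.02, and it passed in 1 of 39 settings.

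MGA2, the membrane-tethered activator of OLE1, had higher signal late in the course in both strains, and on all arrays the rise was called in the deletion strain only. In the deletion strain it measured 30.8, 34.4 and 36.3 at steady state, 33.7 and 34.6 at 5 min, 37.9 and 66.7 at 10 min, 94.4 and 43.8 at 30 min, 56.8 and 71.0 at 60 min, and 82.3 and 65.9 at 120 min. Every array from 10 min on lay above the steady state arrays. The rise passed at 30 min (1.90-fold, log2 0.93, adjusted p = 0.0171), 60 min (1.88-fold, adjusted p = 0.014) and 120 min (2.18-fold, log2 1.13, SE 0.28, adjusted p = 0.007). Without 30 min array 1, the array with the lowest actin ratio, the first was 0.38 (adjusted p = 0.363), and without the discordant arrays, where that array alone stands for 30 min, it was 1.48 (adjusted p = 7.91e-06). The later calls were lost without 60 min array 2 (0.75, adjusted p = 0.109) and without 120 min array 1 (0.97, adjusted p = 0.0974).

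MGA2 in the reference strain measured 53.5, 66.2 and 47.3 at steady state, between 44.1 and 52.4 from 5 to 30 min, 71.9 and 69.9 at 60 min, and 86.2 and 83.9 at 120 min. All reference steady state arrays thus lay above all deletion ones, a log2 difference of -0.71 (SE 0.25) with an adjusted p of 0.0975. That value of -0.71, without the discordant arrays, had an adjusted p of 0.00253, where 26.7% of all genes were called. The strains' changes differed at 30 min (log2 1.10, SE 0.39, adjusted p = 0.041), with quantile normalization 0.64 (adjusted p = 0.289) and with a common median 0.61 (adjusted p = 0.303), and the difference passed in 14 of 39 settings. It was 1.66 without the discordant arrays, from 1 deletion array at 30 min. At 60 and 120 min the differences were 0.55 and 0.50, and each passed in 0 of 39 settings. The reference strain's arrays of 60 and 120 min also lay above all its steady state arrays (log2 0.36 and 0.63). Its 120 min change was not called on all arrays and passed in 9 of 39 settings. With a common median MGA2 was also called higher in the reference strain at 30 min (0.78, adjusted p = 0.0342), where the deposited scale gave -0.17.

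**Figure D3:**
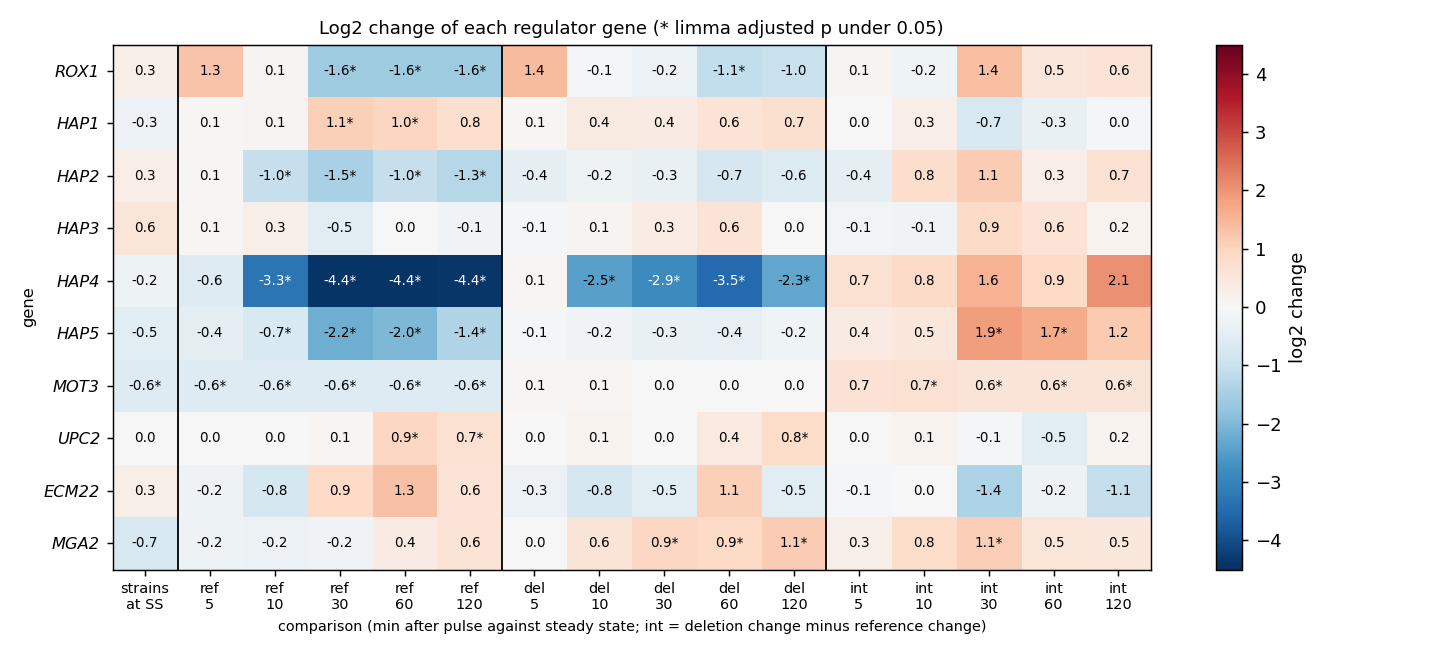
Log2 change of each regulator (rows) in the 16 comparisons (columns: strains at steady state, each time against steady state in the reference strain and in the deletion strain, and the difference between the strains' changes), printed and coloured by value, with a star where limma's adjusted p is under 0.05. The fall of HAP4 in the reference strain reaches -4.42 at 30 min, and HAP5 falls to -2.19 in the reference strain, while its largest value in the deletion strain is -0.36.

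Tests of the difference between the strains' changes called 0 of 10 regulators at 5 min (0% of all genes; limma, 1 regulator at an unadjusted p under 0.05) and 1 at 10 min (MOT3; 1.4%). At 30 min 3 were called (HAP5, MOT3 and MGA2; 30.1%), at 60 min 2 (HAP5 and MOT3; 3.84%) and at 120 min 1 (MOT3; 1.9%). All these differences were in the same direction, a smaller fall or larger rise in the deletion strain. Among all genes called, that direction also prevailed at 30 min (1131 against 486), 60 min (165 against 41) and 120 min (87 against 15). At 10 min it did not (24 against 51). Without MOT3, whose interaction is set by the floor, the regulators' differences are those of HAP5 at 30 and 60 min and of MGA2 at 30 min. The share of regulators called at 30 min is that of all genes. With quantile normalization the count at 30 min was 1 (HAP5) and at 60 and 120 min 0.

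The order of events for ROX1, HAP4 and UPC2 was read from successive time points. For the reference strain none of these 3 passed from steady state to 5 min (1.9% of all genes). HAP4 fell from 5 to 10 min (log2 -2.70, adjusted p = 0.0286; 8.23% of all genes called), ROX1 fell from 10 to 30 min (at least 3.36-fold, log2 -1.75, adjusted p = 0.00299; 41.7%), and UPC2 rose from 30 to 60 min (log2 0.84, adjusted p = 0.0343; 12.5%). The steps of HAP4 and UPC2 lost their calls without any 1 array of the times they join (adjusted p 0.115 to 0.194 and 0.104 to 0.366), except UPC2 without 60 min array 1. Among the other regulators MOT3 was lower at the first step, and HAP3 and HAP5 fell and ECM22 rose from 10 to 30 min. From 60 to 120 min limma called 0 of the 10 in the reference strain (7.93% of all genes; 1 regulator at an unadjusted p under 0.05). UPC2 did not differ past the threshold between 60 and 120 min. Its 30 min arrays (13.6 and 11.3) already lay above all its earlier ones (at most 9.9), but the floor held the 10 to 30 min step to 0.09. That step reached 0.77 in other settings and passed in 2 of 37, so when UPC2 began to rise is not settled. The 5 to 10 min step of ROX1 was -1.15, not called on all arrays, and passed in 5 of 38 settings. Whether this step differed between the strains was not tested. ROX1 lay below the floor from 30 min on, so its later steps could not be measured, and HAP4 lay at about the floor over the same times. The 10 to 30 min step of HAP4 was -1.12 and passed in 2 of 38 settings, among them the one without the discordant arrays (adjusted p = 0.000127; 57.7% of all genes).

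ROX1 and HAP4 both fell from 5 to 10 min in the deletion strain (log2 -1.47, adjusted p = 0.0298, and -2.54, adjusted p = 0.0298; 13.1% of all genes), and no other step of these 3 genes passed. Limma called 0 of the 10 regulators from steady state to 5 min (0.894% of all genes; 1 at an unadjusted p under 0.05), from 10 to 30 min (0%; 0 regulators at an unadjusted p under 0.05), from 30 to 60 min (18.5%; 1) and from 60 to 120 min (3.48%; 1). The 5 to 10 min fall of HAP4 rests on 10 min array 2, without which it was -0.98 (adjusted p = 0.531). That of ROX1 was -1.53 without the same array (adjusted p = 0.136). With both discordant arrays left out, HAP4 changed by log2 -0.98 from 5 to 10 min and by -3.28 from 10 to 30 min. From 60 to 120 min it changed by 1.17. The 10 to 30 min step then joins 1 array at 10 min (116.8) and 1 at 30 min (10.5). The arrays left out measured 13.5 and 75.7, so this course follows from which arrays were kept. Against steady state the 10 min change of HAP4 in the deletion strain was -0.90 in that setting. On all arrays it was -2.46 (adjusted p = 0.00954), and it did not pass without 10 min array 2 alone. UPC2 first passed against steady state at 60 min in the reference strain and at 120 min in the deletion strain. The difference between the strains' changes passed at neither time, so a delay is not shown.

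The genes these regulators act on were taken from lists of textbook targets, chosen like the regulators with earlier results of these data known. Of 7 targets repressed by Rox1, 6 rose in the reference strain by 120 min and 1, CYC7, fell (40.4% of all genes called; median log2 change 4.21, against -0.18 over all genes). The fall of CYC7 was not called with quantile normalization or with a common median. The deletion strain at 120 min had the same counts (21.4%; 5 rose with quantile normalization and with a common median), with a median of 2.00 against 0.04. ANB1, the anaerobic form of translation factor eIF5A, rose from 11.1 ± 5.18 (SD, n = 3) at steady state to 4290 ± 288 (n = 2) at 120 min in the reference strain and from 8.37 ± 1.62 to 520 ± 48.5 in the deletion strain. HEM13, the oxygen-using coproporphyrinogen oxidase of heme synthesis, rose from 43.6 ± 3.49 to 1310 ± 29.5 and from 88.6 ± 6.2 to 1045 ± 64.3. FET4, a low-affinity iron transporter, went from below the floor to 448 ± 13.7 at 60 min in the reference strain and to 41.9 ± 4.95 in the deletion strain. AAC3, the anaerobic ADP/ATP carrier, reached 84.0 ± 10.4 at 60 min in the reference strain and 32.7 ± 14.1 in the deletion strain, from below the floor in both.

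The response of these targets was smaller in the deletion strain for ANB1, AAC3 and FET4 at 30 min (log2 -6.61, -2.04 and -3.73, adjusted p = 2.3e-05, 0.0159 and 0.00205; 30.1% of all genes) and for FET4 at 60 min (-3.42, adjusted p = 0.015; 3.84%). The 30 min values without the discordant arrays were -5.45, -1.30 and -2.57, all called. In that setting 4 targets were lower and 1 higher at 30 min (39.9% of all genes), and 5 lower and 1 higher at 60 min (23.3%). COX5B, the hypoxic cytochrome c oxidase subunit, went the other way, with 15.9 ± 0.919 at 120 min in the reference strain and 86.9 ± 17.8 in the deletion strain (log2 difference of changes 1.95, adjusted p = 2.33e-05). ROX1 itself was below the floor in the reference strain from 30 min on, and its lowest deletion array was 14.4. The changes of ROX1 did not differ between the strains past the threshold at 30, 60 or 120 min (log2 1.36, 0.50 and 0.63). A link between ROX1 and the response of these targets was not tested.

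Of 18 nuclear genes of respiration, the citric acid cycle and heme synthesis that the Hap2/3/4/5 complex activates, 0 passed at 10 min in the reference strain (limma; 0 at an unadjusted p under 0.05; 25.1% of all genes), and 4 were lower without the discordant arrays (47.1%). At 30 min 17 fell and 1 rose (67.9%; median -4.62, against -0.53 over all genes), and 16 were lower at 120 min (40.4%; -3.54 against -0.18). HAP4 was 9.86-fold lower at 10 min, and a link between HAP4 and the fall of these genes was not tested. HEM1, the first enzyme of heme synthesis, was the gene that rose (log2 0.61, adjusted p = 0.0015). ACO1, aconitase, measured 1642 ± 212 at steady state and 24.2 ± 0.0707 at 30 min, and SDH1, a succinate dehydrogenase subunit, 885 ± 80.3 and 20.9 ± 6.79. COX5A, the aerobic partner of COX5B, went from 1110 ± 99.9 to 21.3 ± 1.2.

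Of the 18, 15 were lower in the deletion strain at 60 min (41% of all genes, median -3.25) and 9 at 120 min (21.4%, -1.95). Counts of lower genes here compare the deletion strain with its own steady state. Their changes differed from the reference strain's for 7 genes at 30 min, all higher in the deletion strain, against 30.1% of all genes, and for 0 at 60 min (limma; 2 at an unadjusted p under 0.05) and 0 at 120 min (7 at an unadjusted p under 0.05). Once the discordant arrays were left out, 17 of the 18 were lower in the deletion strain at 30, 60 and 120 min, and the strains' changes differed for 10, 9 and 13 of them (39.9%, 23.3% and 19.6% of all genes), all but 1 at 60 min higher in the deletion strain. CYC1, iso-1-cytochrome c and also a target of Hap1, fell from 1576 ± 179 to 12.6 ± 2.97 at 120 min in the reference strain and from 994 ± 30.9 to 48.9 ± 4.45 in the deletion strain. CYT1, cytochrome c1 and likewise in both lists, measured 8.9 ± 1.98 at 120 min in the reference strain, below the floor, and 89.9 ± 0.778 in the deletion strain.

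Of 8 targets of Hap1, 6 fell in the reference strain at 30 min (67.9% of all genes called; median -3.88) and 0 rose, with 5 lower and 1, NCP1, higher at 120 min (40.4%). CYB2, lactate cytochrome c oxidoreductase, went from 829 ± 123 to 8.5 ± 0.707 at 30 min, below the floor, and HMG1, an HMG-CoA reductase, from 1851 ± 237 to 109 ± 9.76. The fall was smaller in the deletion strain at 30 min for 5 of the 8 (CYC1, CYB2, YHB1, HMG1 and ERG11; 30.1% of all genes called), and without the discordant arrays 5 were higher and 1 lower (39.9%). YHB1, the flavohemoglobin, differed again at 60 min (log2 3.16, adjusted p = 0.00492), where it measured 86.8 ± 6.43 in the reference strain and 525 ± 6.36 in the deletion strain. At that time 5 of the 8 differed without the discordant arrays (23.3% of all genes). At steady state, where HAP1 by the single-transcript set was lower in the deletion strain, limma called 0 of these 8 between the strains (0 at an unadjusted p under 0.05; 5.74% of all genes; median -0.43, against 0.13 over all genes). Without the discordant arrays 4 of them were lower and 1 higher in the deletion strain, with 26.7% of all genes called.

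The 12 targets of Upc2 and Ecm22 fall into 5 enzymes of ergosterol synthesis and 7 genes of anaerobic cell wall proteins and sterol uptake. At 30 min in the reference strain ERG2, ERG3, ERG11, ERG25 and DAN4 were lower and TIR3 higher (67.9% of all genes called). At 120 min DAN1, TIR1, TIR3, TIR4 and AUS1 were higher and ERG25 lower (40.4%), and without the discordant arrays 5 were higher and 4 lower (56.6%). ERG3, the sterol desaturase, measured 1932 ± 313 at steady state, 113 ± 20.2 at 30 min and 1292 ± 160 at 120 min. ERG11, ERG25 and ERG2, also enzymes of the pathway, had 30 min log2 changes of -2.68, -1.84 and -1.51. DAN1, a cell wall mannoprotein, was below the floor until 60 min (10.8 ± 4.31) and reached 1035 ± 117 at 120 min, at least 86.0-fold higher (adjusted p = 5.8e-16). TIR1, of the same kind, measured 154 ± 16.3 at 60 min and 2954 ± 292 at 120 min.

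Of the 12, 9 were higher at 60 min than at steady state in the deletion strain, and 0 lower. The 9 include ERG1, ERG3 and ERG25, and 41% of all genes were called (867 higher and 1334 lower). DAN1 already measured 65.4 ± 18.6 and TIR1 536 ± 10.7 at that time. The strains' changes differed at 60 min for 6 genes, all higher in the deletion strain (ERG1, ERG3, ERG25, DAN1, TIR1 and PDR11; 3.84% of all genes), with log2 differences of 2.31 for DAN1 (adjusted p = 6.22e-06) and 1.46 for TIR1 (0.0281). At 120 min DAN1 stood the other way, at 154 ± 1.56 in the deletion strain (log2 -2.74, adjusted p = 2.08e-07). The count of called genes moved with the scaling: with a common median 4 rose and 1 fell in the reference strain at 60 min, in place of 2 and 6, and 2 in place of 6 differed between the strains. UPC2 itself did not differ between strains past the threshold at these times.

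OLE1, the target of Mga2, fell in the reference strain from 2083 ± 226 at steady state to 126 ± 1.56 at 30 min (log2 -4.05, adjusted p = 2.4e-07) and measured 1657 ± 22.4 at 120 min. The deletion strain measured 1300 ± 19.1 at steady state and 1058 ± 842 at 30 min, a difference of 3.48 between the strains' changes (adjusted p = 0.000407; 2.56 without the discordant arrays). Among 11 partners of the regulators, 6 fell and 2 rose in the reference strain at 30 min (67.9% of all genes called), and 4 fell and 5 rose with a common median. The falls include the machinery that frees Mga2: CDC48 (912 ± 113 to 154 ± 18.8), UFD1, NPL4 and the membrane adaptor UBX2, with log2 changes of -2.57, -2.31, -2.67 and -3.55. These 4 of the 11 differed between the strains at 30 min, with log2 differences of 2.30, 1.74, 2.11 and 3.25, all higher in the deletion strain (30.1% of all genes). Without the discordant arrays 4 were higher and 2 lower (39.9%), the lower ones being RSP5 (-0.91, adjusted p = 0.0146) and TUP1 (-0.97, adjusted p = 0.0416). The corepressor genes TUP1 and CYC8 were not called at any reference time point from 10 to 120 min. SUT1 and SUT2, regulators of sterol uptake, were the 2 that rose.

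**Figure D4:**
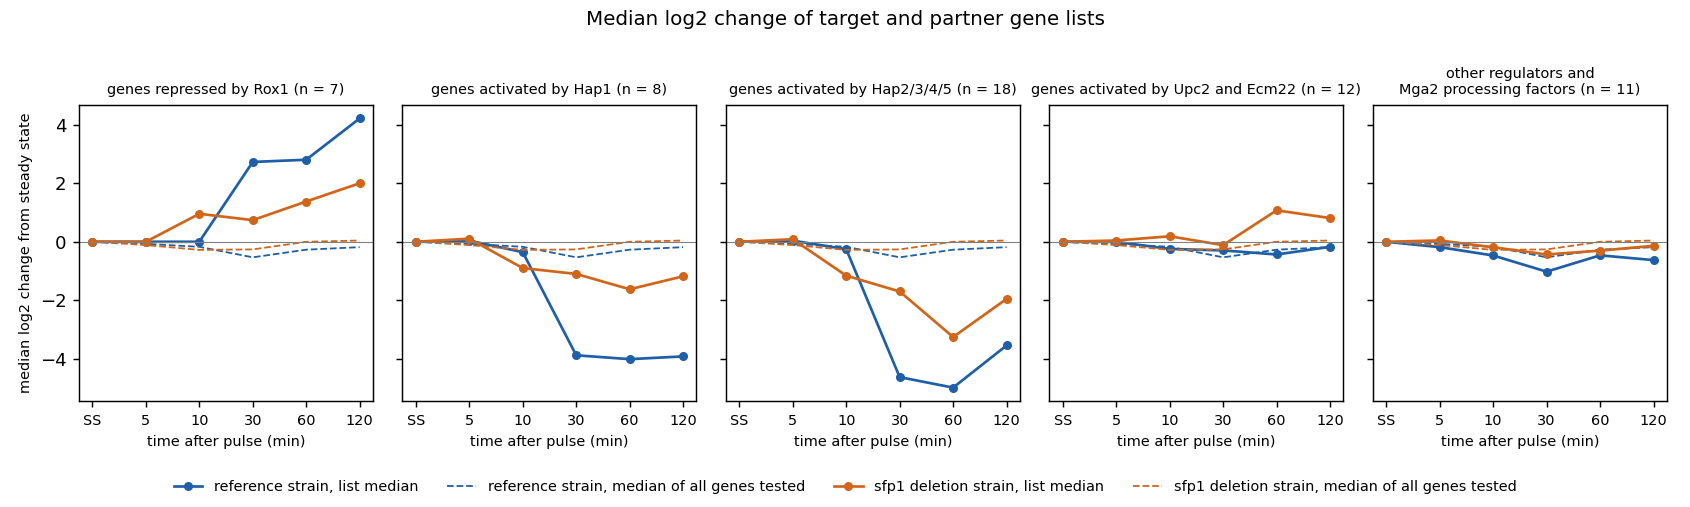
Median log2 change against steady state for the target lists of Rox1 (7 genes), Hap1 (8), Hap2/3/4/5 (18) and Upc2 with Ecm22 (12) and for the 11 partners, by time and strain, with the medians of all genes tested as dashed lines. The Rox1 targets reach 4.21 in the reference strain and 2.00 in the deletion strain at 120 min, and the Hap2/3/4/5 targets are at -4.62 in the reference strain at 30 min.

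The genes whose log2 signal over the 26 arrays was most like that of ROX1 were SDH5 (Pearson's r 0.892), YBL029C-A (0.884) and TMC1 (0.884). For HAP4 they were GLC3 (0.983), DBP1 (0.979) and YPC1 (0.979), and for UPC2 they were SNR46 (0.799), ARE1 (0.783) and DIP5 (0.779). Among the regulators themselves, HAP5 correlated with HAP4 at 0.776, with HAP2 at 0.764 and with HAP3 at 0.368, and ROX1 correlated with HAP4 at 0.76. The arrays share the strains and times, so these values describe a common course across 26 arrays and carry no test.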

How the data were processed

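The deposited values are signal intensities per probe set that the authors made with GCOS, per the submitters' processing notes. Its version, algorithm and scaling are not given. The 2% trimmed mean of the intensity table lies between 150.11 and 150.21 on every array, so no further scaling was applied. Array medians lie between 22.7 and 49.1, and precision is limited by how many arrays there are.

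Of 9335 probe sets, 60 are controls, and 6504 have 1 gene in the platform annotation, 328 several and 2443 none. All 5656 genes were found in the RefSeq table. For the 315 genes with several probe sets, the one with the highest mean log2 signal was used. Genes above the floor of 12 on fewer than 2 arrays (287) were left out. Group means were fitted with limma 3.58.1 in R 4.3.3 (lmFit, eBayes with trend; 14 residual and 3.59 prior degrees of freedom), with contrasts of strain, time and their interaction, successive times and F-tests. SDs are over cultures, which the labels call independent. Figures used matplotlib 3.10.9 in Python 3.11.15.

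The regulators and the gene lists were chosen with earlier results of these data known. Named genes are all regulators, SFP1, per list up to 4 called genes with the largest change in the reference strain at 30 min and 2 at 120 min, and the 3 most alike genes of ROX1, HAP4 and UPC2. The other target genes and the single-transcript probe set of HAP1 were named after their values were seen. Deviations of same-numbered arrays from their group means correlated at -0.251 to 0.272 between times of the reference strain (median 0.111, 15 of 30 pairs over 0.1). The range was -0.719 to 0.356 in the deletion strain (median 0.0323) and -0.167 to 0.143 between strains (median 0.0431). The numbers were not taken as pairs, and with 2 arrays per time these values cannot exclude a pairing.

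The fit was tested on simulated data over 5369 genes. The changed genes were drawn from those with a mean log2 signal over 2 units above the floor, and noise was independent between arrays. The results thus do not cover genes near the floor, such as MOT3 and UPC2, or arrays that disagree with their partner. For the steady state comparison it found 63 of 100 genes with a log2 change of 1, 97 of 100 with a log2 change of 2, and called 6 unchanged ones; for the reference 30 min comparison the numbers were 48, 93 and 12. Alternatives covered normalization, floor, filter, probe set rule, trend, threshold, replicate block, array code prefix, groups fitted and each array left out in turn.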

Additional observations from a re-analysis of the deposited data

Results flagged for a closer look

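The change from steady state differed between the strains, by the interaction term, for 3 of the 10 regulators, against shares of all genes called of 1.4%, 30.1%, 3.84% and 1.9% for the times 10, 30, 60 and 120 min. For HAP5 the difference, deletion strain minus reference strain, was 1.87 on the log2 scale at 30 min (adjusted p = 0.000902) and 1.66 at 60 min (adjusted p = 0.00838). HAP5 already lay lower in the deletion strain before the pulse (log2 -0.53, not called on all arrays), and the part of this gap was not tested. For MGA2 it was 1.10 at 30 min (adjusted p = 0.041). For MOT3 it was 0.68 at 10 min and 0.59 at 30, 60 and 120 min, values set by the floor, since the deletion strain lay below it at steady state and the reference strain after the pulse.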

How the results depend on the processing

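Counts of called regulators under the alternatives, where they moved by over 1.5 times, were as follows, against the counts of the report. Quantile normalization gave 0 in the reference strain at 5 min, 2 at 10 min, 2 in the deletion strain at 10 min, interactions of 0, 1, 0 and 0 at 10, 30, 60 and 120 min, and 3 called steps of ROX1, HAP4 and UPC2 in place of 5. A common median gave 0 in the reference strain at 5 min, 2 at 10 min, 2 in the deletion strain at 10 min and interactions of 0, 1, 0 and 0; it reversed MGA2 at 30 min (0.78, adjusted p = 0.0342) and HAP3 at 60 min (0.68, adjusted p = 0.0412) in the reference strain. A floor of 48, at which MOT3 and UPC2 drop out, gave 2, 3, 4 and 3 in the reference strain at 10, 30, 60 and 120 min, 1 each in the deletion strain at 5, 30 and 60 min, 0 interactions at 10, 30, 60 and 120 min and 2 over the deletion time course. No floor gave 0 at steady state and in the reference strain at 5 min, 2 in the deletion strain at 10 min, interactions of 0, 1 and 0 at 10, 60 and 120 min and 3 steps. Interactions were 1 at 5 min without the filter, and 0, 1 and 0 at 10, 60 and 120 min without the trend. The mean of all probe sets gave 2 at steady state and 2 in the deletion strain at 10 min.

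An adjusted p under 0.01 gave 2 in the reference strain at 10 min, 1 in the deletion strain at 30, 60 and 120 min, interactions of 0, 1 and 0 at 10, 60 and 120 min and 1 step. The replicate block gave 2 in the reference strain at 10 min and moved no other count past 1.5 times. The numbers were not taken as pairs in the main fit. The code prefix as a term gave 2 (reference) and 1 (deletion) at 5 min and 5 (deletion) at 60 min. Without both discordant arrays the counts were 2 at steady state (26.7% of all genes), 2 (reference; 9.54%) and 1 (deletion; 6.6%) at 5 min, 2, 5, 6 and 5 in the deletion strain at 10, 30, 60 and 120 min (31.6%, 57.1%, 58.3% and 42.2%), interactions of 1, 3 and 4 at 5, 10 and 120 min (0.467%, 17.9% and 19.6%), and 11 steps; ECM22 reversed in the deletion strain at 30 min (0.66) and in the interaction at 10 min (-1.43). Fitting only the groups compared gave 2 at steady state, 0 in the reference strain at 5 min, 1, 0, 0 and 5 in the deletion strain at 5, 10, 30 and 120 min, interactions of 0 and 4 at 10 and 120 min and 1 over the deletion time course. Taking the deletion arrays of 10 and 30 min as 1 group gave 2 at 10 min. HAP1 by the single-transcript set, added after seeing the data, gave 2 at steady state.

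Leaving out each array in turn, the counts ranged from 1 to 2 at steady state, in the reference strain from 1 to 2, 2 to 4, 5 to 7, 5 to 8 and 5 to 7 at 5, 10, 30, 60 and 120 min, and in the deletion strain from 0 to 1, 1 to 2, 0 to 3, 2 to 6 and 0 to 4. Interactions ranged from 0 to 1, 0 to 2, 2 to 6, 0 to 2 and 0 to 2, the time courses from 6 to 9 and 3 to 5, the steps from 3 to 10 and the 42 called list genes from 36 to 43. The lowest deletion count at 120 min, 0, came without 120 min array 1, and the highest count of steps without deletion 30 min array 1. The causes were not tested.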
